A study of Homo sapiens with 6 samples.

Results

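ZCCHC12, also named SIZN1 or PNMA7A, is 1 of the 7682 genes in the table of RNA levels and half-lives analysed here. It was selected on measured values, namely the largest fall of total RNA after MOV10 siRNA together with a labelled RNA fall that exceeded the fall of its half-life. Its change between mock and siRNA is therefore described without a test. The cells were HEK293, a human embryonic kidney line, either mock transfected or transfected with siRNA against MOV10, an RNA helicase. All groups received 700 µM 4-thiouridine (4SU) for 60 min, a nucleoside that is built into new RNA and allows its capture on beads. Poly(A)+ RNA was sequenced from total RNA, the captured 4SU-labelled RNA and the flow-through that did not bind, which gives 6 groups, and the table holds 2 replicate columns for each. The series asked how MOV10 changes the stability of its target mRNAs. The sources used here do not say how many siRNAs were used, what the mock transfection contained or whether the replicates were separate cultures, so errors and p-values cover only the spread between these columns.

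ZCCHC12 encodes a protein with a CCHC zinc knuckle and belongs to the PNMA family, genes derived from the Gag protein of an ancient retroelement. It is known as a partner of SMAD proteins that strengthens transcription downstream of bone morphogenetic proteins (BMPs), secreted signals that act through receptor kinases and SMADs on genes such as the ID family. It also acts with the coactivator CBP and with AP-1 and CREB factors, and is studied mostly in the developing forebrain. The amount of an mRNA depends on how fast it is made and how fast it decays. RNA labelled within the hour follows mainly synthesis for an mRNA that decays slowly, and the ratio of labelled to older RNA gives the half-life.

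In GENCODE release 29 the gene lies at chrX:118823790-118826968 on the plus strand of GRCh38. The submitters' processing notes name hg18 instead, and the table carries no coordinates. The gene has 4 exons and 1 annotated coding transcript of 2231 bases, with a 5' UTR of 507 bases, an open reading frame for 402 residues and a 3' UTR of 515 bases. The 7-base sequence TACTGCA is shown here because 19 of the 40 genes with an annotated 3' UTR and a total RNA fall of 1 log2 unit or more carried it there (47.5%), against 12.1% of the 3' UTRs of 5853 genes. It was chosen with its link to these data known and the shares were not matched for 3' UTR length, so they are a description. ZCCHC12 had 0 matches to TACTGCA in its transcript. The shorter ACTGCA occurred 2 times, once in the coding part and once in the 3' UTR, on the RNA strand, and is in capitals in these stretches of GENCODE sequence, 5' to 3'.
coding part, base 779: tcggcagtgctgACTGCAatgtgatagaga
3' UTR, base 90: gtgggacttctaACTGCAtgaattaatcca
Of the 707 genes with a 3' UTR within 25% of the length of that of ZCCHC12, 17.1% held ACTGCA and 3.82% held TACTGCA. The ZCCHC12 transcript was 50.9% G and C, against a median of 48.0% over genes.

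The table used here held normalised values with no unit named, all at 1.00 or above, and no counts, so the depth of the libraries is unknown. Replicate columns of a group had Spearman correlations between 0.993 and 0.996 over genes for expression. MOV10 total RNA stood at 13.1 and 14.6 in mock and at 3.53 and 3.64 after siRNA, so the targeted mRNA was lower in both siRNA columns. UPF1, the gene of a helicase known to act with MOV10, stood at 25.2 and 30.8 in mock and at 30.8 and 30.6 after siRNA. Of the 6 intermediate filament genes listed as typical of HEK293, VIM, NEFL and INA passed the expression minimum. KRT8, KRT18 and NEFM had no value here, and 0 of 16 markers of other cell types had one. Lack of a value therefore does not tell whether a gene was expressed. Comparisons across genes used 6264 genes, those whose total RNA averaged at least 5 over all 4 total columns. All changes are siRNA minus mock on the log2 scale, after adding 1 for RNA levels, and relative to the median gene of each column unless stated otherwise.

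ZCCHC12 lost about the same share of its total and flow-through RNA and less of its labelled RNA. Total RNA was at 45.5 and 50.6 in mock and at 8.05 and 8.34 after siRNA. The mean went from 48.1 ± 3.58 to 8.19 ± 0.201 (SD, n = 2), so 17.1% was left (log2 change -2.39, SE 0.08). Flow-through RNA, made mostly before the labelling hour, was at 67.2 and 65.8 in mock and at 12.1 and 12.6 after siRNA, which left 18.6% (-2.31, SE 0.05). Labelled RNA was at 32.9 and 32.2 in mock and at 11.3 and 9.62 after siRNA. There 32.1% was left, a 3.12-fold lower level (-1.69, SE 0.09). In each fraction both siRNA columns lay far below both mock columns. The gene was chosen for its fall in these columns, so this separation is a description and no support for the fall. In a cell line, fewer cells that express the gene and less RNA per cell cannot be told apart.

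**Figure D1:**
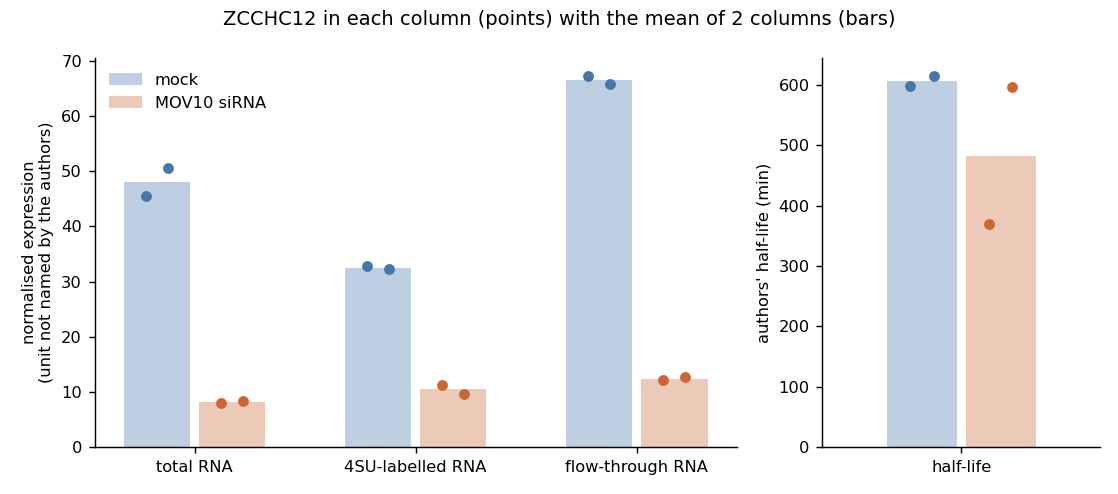
Normalised expression of ZCCHC12 in total, 4SU-labelled and flow-through RNA (left) and the authors' half-life in minutes (right), in mock (blue) and MOV10 siRNA (orange) columns; points are single columns and bars the mean of 2. Total RNA falls from 48.1 to 8.19 and labelled RNA from 32.6 to 10.4, while 1 siRNA half-life (597 min) lies next to the mock values.

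Half-lives were computed by the authors from the 3 fractions. The mock columns gave ZCCHC12 half-lives of 598 and 614 min, and the siRNA columns 369 and 597 min. As deposited, the second siRNA value lay just under the lower mock value. That column was high for most genes, with a median half-life of 1021 min against 736, 800 and 754 min in the other columns. In the recomputed half-lives given last in this paragraph the same column had the lowest median, 463 min against 587, 646 and 511 min. Relative to the median gene of its column, ZCCHC12 was at -0.30 and -0.38 log2 units in mock and at -1.03 and -0.77 after siRNA. The change was -0.56 (SE 0.11), made up of -0.73 for replicate 1 and -0.39 for replicate 2. Half-lives recomputed from the fractions with 1 rule for all columns came to 513 and 540 min for mock and 265 and 292 min for siRNA, a change of -0.58.

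The make-up of the remaining ZCCHC12 RNA shifted towards new RNA. The ratio of labelled to total values was 0.722 and 0.637 in mock and 1.40 and 1.15 after siRNA, 1.87-fold higher, while the median gene rose 1.13-fold. How the libraries were scaled against each other is not known, so the ratio is no molar share. The ratio of flow-through to total values was 1.48 and 1.301 in mock and 1.503 and 1.52 after siRNA, and moved little. For first-order decay at a steady level, the log2 changes of labelled RNA and of half-life should add up roughly to that of total RNA. For ZCCHC12 the sum was -2.25 and total RNA differed from it by -0.14, while the SD of this difference over genes was 0.24. The labelled part made up 75.0% of the sum, and the choice of the gene fixed that it was the larger part. The half-life comes from the same fractions, so the sum is no independent check.

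In mock cells ZCCHC12 was among the better expressed genes and had an mRNA of moderate stability. Its total RNA ranked 1178th of 6264 genes from the top, between ALDH18A1 (48.1) and DDX42 (48.0), and its labelled RNA 1042nd. After siRNA it ranked 5066th in total and 3627th in labelled RNA. These values are not known to be scaled by gene length, so the ranks describe the table and not molecule numbers. Its mock half-life of 606 min, between those of IGF2BP3 and TBC1D13, ranked 3899th, and the median gene stood at 770 min. ALDH18A1 and DDX42, with the same mock level, had total RNA changes of 0.06 and 0.07. IGF2BP3 and TBC1D13, with the same mock half-life, were at 0.37 and 0.20.

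Whether ZCCHC12 had the largest fall of total RNA depends on the expression minimum. With the minimum applied to each condition apart (6064 genes) or a mean of 20 (2775 genes) it ranked first. With a mean of 5 over all columns, or with no minimum, JPH3 ranked above it. JPH3, a junctophilin gene, had total RNA at 35.3 and 29.8 in mock and at 2.83 and 3.43 after siRNA (-3.001). Its labelled RNA went the other way, from 3.90 and 3.98 to 21.9 and 22.8, and its mock columns disagreed in flow-through RNA (70.0 and 5.02) and half-life (5573 and 422 min). The next falls after ZCCHC12 were those of UBE2MP1 (-1.94), CDC42EP1 (-1.75) and MOV10 (-1.67). In labelled RNA ZCCHC12 ranked first under each of the 4 expression minimums, with FOS (-1.59), TRDMT1 (-1.51), INSM1 (-1.36) and JUND (-1.28) next. TRDMT1, the gene of an RNA methyltransferase, rested on columns that disagreed, with labelled RNA at 13.2 and 3.63 in mock and at 2.44 and 1.83 after siRNA. Without mock replicate 1 its change was -0.74, and without mock replicate 2 it was -2.29, which put it above ZCCHC12 (-1.66). In half-life ZCCHC12 ranked 206th.

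Among the genes with a large loss of total RNA, few had the make-up seen in ZCCHC12. Total RNA was lower by 1 log2 unit or more in 41 genes, with a median half-life change of -1.01 and a median labelled change of -0.29. The labelled change lay below the half-life change in 3 of the 41, ZCCHC12, the AP-1 gene FOS and SPG21. SPG21, named after its values were seen, was at -0.61 and -0.57, an order that turned without mock replicate 1 (-0.50 and -0.72) or siRNA replicate 1 (-0.50 and -0.80). Labelled RNA was lower by 1 log2 unit or more in 14 genes, and ZCCHC12 and FOS were the 2 of these whose total RNA was also lower by that much. The 14 genes had median changes of -0.55 in total RNA and -0.08 in half-life. The other 13 included short-lived mRNAs of immediate early genes, which respond within minutes to signals. Over these 13 the median mock half-life was 132 min (range 25.5 to 916), against 606 min for ZCCHC12. FOS was at 46.1 and 45.8 min in mock. The 14 transcripts had a median GC content of 60.7%, and ZCCHC12 stood at 50.9%. Both groups of genes were chosen by the same contrast, so their counts are a description.

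**Figure D2:**
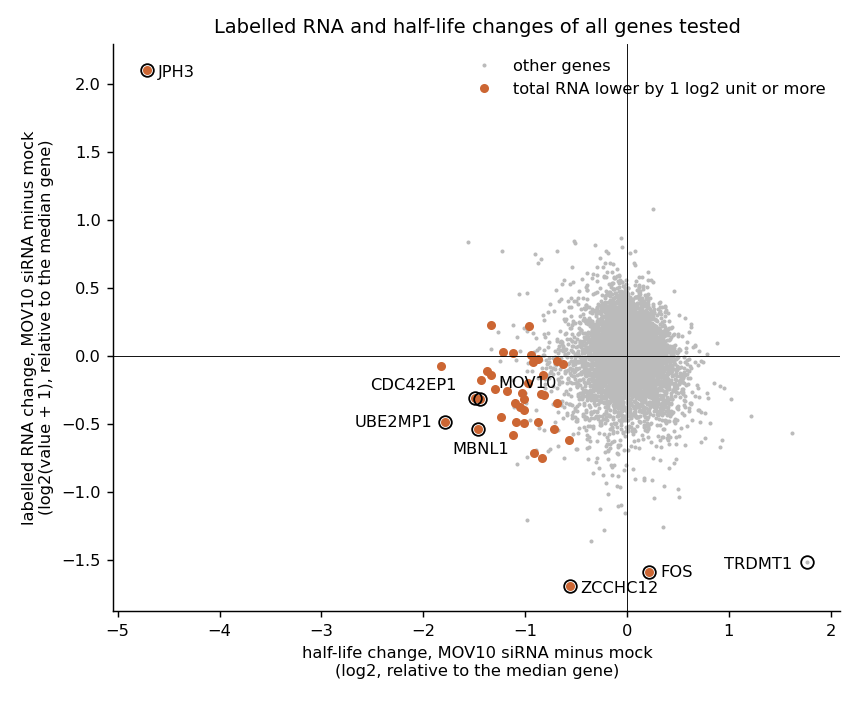
Change of labelled RNA (vertical axis) against change of half-life (horizontal axis) in 6264 genes, both log2, siRNA minus mock, relative to the median gene; orange points are the 41 genes with total RNA lower by 1 log2 unit or more. Most orange points lie at half-life changes near -1, while ZCCHC12 (-0.56 and -1.69) lies at the bottom beside FOS.

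Likeness to ZCCHC12 was measured as the Euclidean distance over the 3 log2 changes of total, labelled and flow-through RNA, which rest on the 6 groups. The nearest gene, UBE2MP1, lay at a distance of 1.29. ZCCHC12 was chosen as an extreme of these changes, so a wide gap to every other gene was built in. UBE2MP1, a pseudogene transcript of the NEDD8-conjugating enzyme gene UBE2M, matched it in flow-through RNA (-2.38) but not in labelled RNA (-0.48) or half-life (-1.79). Its total RNA was at 133 and 150 in mock and at 38.0 and 33.3 after siRNA, values that are uncertain where reads also matched UBE2M. CDC42EP1, a CDC42 effector gene, the splicing regulator gene MBNL1 and MOV10 followed the same order, with labelled changes between -0.54 and -0.31 and half-life changes between -1.50 and -1.44. The chromatin protein gene HMGA2 (labelled -0.75, half-life -0.83), the transcription cofactor gene VGLL4 (-0.72 and -0.92), the homeobox gene DLX2 (-0.80 and -1.08) and the CBP-binding cofactor gene CITED2 (-0.74 and -0.98) had changes of similar size in both measures. PRR7 lay nearer in labelled RNA, with 10.6 and 15.6 in mock and 5.63 and 5.58 after siRNA (-1.21), and with a half-life change of -0.99. Its mock half-lives disagreed (415 and 217 min), and without mock replicate 2 the changes were -0.91 in labelled RNA and -1.51 in half-life, the opposite order. FOS, the tenth, came closest in labelled RNA, from 42.8 and 45.7 to 16.8 and 14.2, but its half-life change was 0.22.

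**Figure D3:**
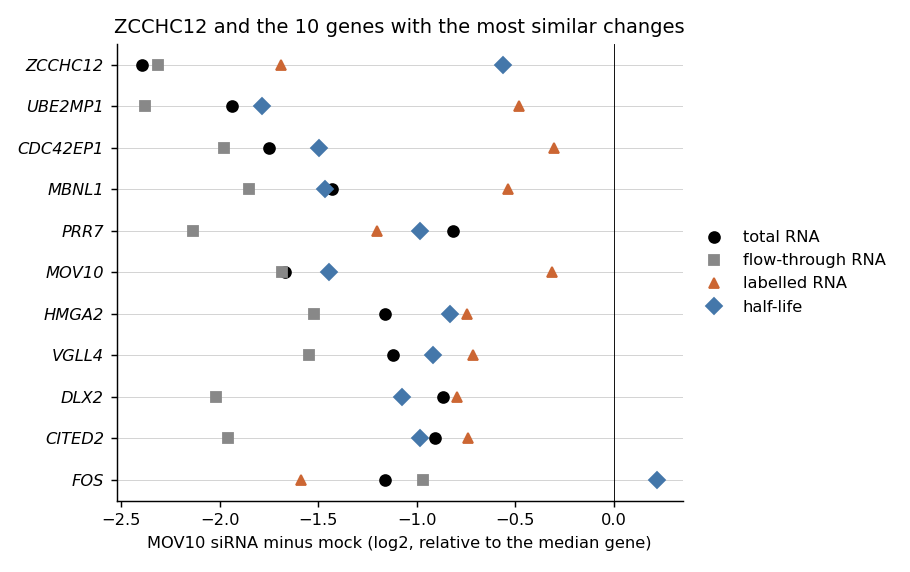
Log2 changes (siRNA minus mock, relative to the median gene) of total RNA (circles), flow-through RNA (squares), labelled RNA (triangles) and half-life (diamonds) for ZCCHC12 and the 10 genes nearest to it, in order of distance. In UBE2MP1, CDC42EP1, MBNL1 and MOV10 the half-life lies far left of labelled RNA, and in ZCCHC12 and FOS the order is the opposite, as in PRR7, where it rests on mock replicate 2.

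The genes related to ZCCHC12 were read against all genes tested, not against ZCCHC12, which was chosen for its extreme fall. Over all genes tested, total RNA was called lower in 15% and higher in 13.6%, and labelled RNA lower in 11.3% and higher in 9.95% (limma, Benjamini-Hochberg adjusted p under 0.05). Without centring on the median gene the counts were 505 higher and 759 lower in total RNA, and 1666 higher and 345 lower in labelled RNA, against 850 and 937, and 623 and 709, with it. Flow-through RNA was lower in 26.5% and higher in 32.4%, and half-lives were shorter in 4.49% and longer in 2.01%. Of 4 other PNMA family genes past the minimum, 2 fell in total RNA and 0 changed in labelled RNA (limma, also 0 at an unadjusted p under 0.05). Without centring 1 of the 4, CCDC8, was higher in labelled RNA. PNMA1, whose protein is a neuronal autoantigen, was at 32.7 and 35.6 in mock total RNA and at 20.04 and 16.4 after siRNA (-0.86, limma, adjusted p = 1.2e-05). In labelled RNA it was at 57.4 and 57.7 in mock and at 66.8 and 62.9 after siRNA (0.04). The half-life of PNMA1 fell (-1.05, limma, adjusted p = 0.0043). CCDC8, grouped with this family here, had changes of -0.53 in total RNA and -0.81 in half-life, both past the test, the latter not without mock replicate 1. The half-life calls of both genes were lost without centring on the median gene. PNMA2 and the apoptosis modulator gene MOAP1 were at 0.04 and 0.00 in total RNA and did not pass. PNMA6A lay below the minimum. ZCCHC18, also named PNMA7B and a near copy of ZCCHC12, had no value here under either name, and how reads that match both were counted is unknown.

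Among 7 other genes with ZCCHC names or a like zinc knuckle (CNBP), 1 fell and 4 rose in total RNA. Shares over all genes, for these and the Gag-derived genes, were 15% and 13.6% in total RNA and 11.3% and 9.95% in labelled RNA. ZCCHC10 fell from 17.1 and 15.5 to 6.03 and 6.61 (-1.22, limma, adjusted p = 9.7e-07). Its half-life fell by 1.01 and its labelled RNA by 0.39, so the half-life moved more, the reverse of ZCCHC12. Its labelled and half-life calls were lost without centring, its total RNA call was not. ZCCHC8, a subunit of the nuclear exosome targeting complex, rose by 0.35 in total RNA, with 19.2 and 18.7 in mock and 24.7 and 23.4 after siRNA, a call lost without siRNA replicate 1. The calls of ZCCHC3, ZCCHC7 and ZCCHC9 (0.23, 0.30 and 0.24) were lost without centring and when either siRNA column was left out, and those of ZCCHC3 and ZCCHC7 also without mock replicate 2. In labelled RNA 2 of the 7 fell, ZCCHC10 and ZCCHC3 (-0.26), and 3 rose, ZCCHC6, ZCCHC7 (0.39) and ZCCHC8 (0.26). The labelled calls of ZCCHC6 and ZCCHC7 held in all 11 alternatives, while that of ZCCHC3 was kept in 5 of 12 and that of ZCCHC8 in 6 of 12. The uridylyltransferase gene ZCCHC6 was at -0.09 in total RNA and at 0.56 in labelled RNA (limma, adjusted p = 0.0015). Of 5 other Gag-derived genes, 2 fell in total and 3 in labelled RNA. ARC, a synaptic capsid gene that is also an immediate early gene, went from 23.9 and 29.1 to 13.6 and 9.79 in labelled RNA (-1.26, limma, adjusted p = 0.00021). FAM127A, which has near copies, was at -0.57 and LDOC1 at -0.58 in labelled RNA, LDOC1 not without mock replicate 2. In total RNA ARC was at -0.75 and FAM127A at -0.33, the latter not past the test without siRNA replicate 1. PEG10 and LDOC1L were at 0.00 and -0.10 in labelled RNA and did not pass.

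Of the 5 nearest protein-coding genes on each side of ZCCHC12 on chromosome X in RefSeq (GRCh38.p14), 5 in all passed the minimum. Total RNA fell in 2 of the 5, PGRMC1 and LONRF3, and labelled RNA in the same 2, against 15% and 11.3% of all genes. IL13RA1, an interleukin receptor gene and the next before ZCCHC12, was at 11.8 and 12.7 in mock total RNA and at 12.7 and 12.8 after siRNA (0.08), and its labelled RNA was at -0.26 (limma, adjusted p = 0.069). LONRF3, the next after it, went from 13.6 and 14.8 to 11.3 and 12.1 in total RNA (-0.24, limma, adjusted p = 0.038), a call lost without centring and when mock replicate 2, siRNA replicate 1 or siRNA replicate 2 was left out. In labelled RNA LONRF3 was at -0.27 (limma, adjusted p = 0.047), a call lost in 7 of 11 alternatives, among them no centring and leaving out mock replicate 1, mock replicate 2 or siRNA replicate 1. PGRMC1, a haem-binding membrane protein gene further along, went from 112 and 114 to 58.5 and 59.6 (-0.90, limma, adjusted p = 5.7e-07), with labelled RNA at -0.41. Its half-life moved more, by -0.68 (limma, adjusted p = 0.029), the reverse of ZCCHC12. That call was kept in 7 of 11 alternatives and lost without centring. DOCK11 and WDR44 were at 0.20 and 0.17 in total RNA and did not pass. KLHL13, below the minimum and not tested, had total RNA at 3.86 and 4.32 in mock and at 2.62 and 2.55 after siRNA.

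The promoter is shown because ZCCHC12 was chosen for its fall of labelled RNA. Of the motifs sought for AP-1, CREB and SMAD factors, listed further on, only the short TGACG matched. RefSeq's promoter window of ZCCHC12 (GRCh38.p14, chrX:118823574-118823873, plus strand) was 65.7% G and C, above 69.5% of 27305 promoters. On either strand it held CCAAT 2 times, a motif found in 35.7% of promoters, and TGACG, the core of a CRE, 2 times (25.01% of promoters). The full CRE TGACGTCA (1.98%), the AP-1 motif TGACTCA (4.92%), TATAAA (11.95%) and the SMAD element GGCGCC (19.0%) had no match in this window. The matches nearest to the start are in capitals, both on the minus strand and printed here as the plus strand reads, and their stretches overlap.
CCAAT, chrX:118823732-118823761: cgcacttcgctgATTGGccgcactagcccg
TGACG, chrX:118823752-118823781: cactagcccgctCGTCAcgctcttttgtct
A match describes the letters of the window and shows no binding.

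The BMP pathway, in which ZCCHC12 acts, was read from ligands to targets. The lists also hold genes outside it, such as activin and TGF-beta receptor genes. Of 6 ligand and antagonist genes past the minimum, 3 fell in total RNA and 0 rose. Over all genes 15% fell and 13.6% rose in total RNA, and 11.3% fell and 9.95% rose in labelled RNA. The secreted glycoprotein gene FSTL1 (-0.46), the BMP-binding gene TWSG1 (-0.37) and the ligand gene GDF1 (-0.37) fell, while the ligand gene BMP7 was at -0.02 and did not pass. In labelled RNA 2 of the 6 fell and 0 rose, GDF1 (-0.86, limma, adjusted p = 0.00037) and TWSG1 (-0.44, limma, adjusted p = 0.011), and both calls held in all 11 alternatives. GDF1 total RNA did not pass without centring, mock replicate 2 or siRNA replicate 2, TWSG1 not without siRNA replicate 1. Of 4 receptor genes past the minimum, ACVR1B, BAMBI, BMPR1A and TGFBR1, 0 fell in total RNA and 1 rose. That was the activin receptor gene ACVR1B (0.26), a call lost without centring, mock replicate 1 or siRNA replicate 1. BMPR1A, a type I BMP receptor gene, was at 10.6 and 10.3 in mock and at 10.2 and 10.3 after siRNA.

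Among 14 SMADs and SMAD regulators, 4 fell and 1 rose in total RNA, against 15% and 13.6% of all genes. SMAD1, which carries the BMP signal, was at 12.6 and 12.1 in mock and at 7.42 and 7.38 after siRNA (-0.65, limma, adjusted p = 0.00012). SMAD4, the partner that SMADs share, went from 25.3 and 26.4 to 16.02 and 17.4 (-0.58, limma, adjusted p = 0.00011). ZEB2, a SMAD-binding repressor gene, and TGIF2 were at -0.60 and -0.32, and the call of TGIF2 was lost without siRNA replicate 2. SMAD2, the one that rose (0.28), passed in 4 of 11 alternatives. The half-lives of SMAD1 and SMAD4 changed by -0.72 and -0.73. Both half-life calls were lost without centring and without mock replicate 1, and that of SMAD1 also without siRNA replicate 1 or siRNA replicate 2. Labelled RNA fell in 2 of the 14, against 11.3% of all genes. These were SMAD3 and YY1, the latter lost without centring, while SMAD1 (-0.22) and SMAD4 (-0.13) did not pass. The coactivator genes CREBBP and EP300, the former encoding CBP, were at 0.16 and 0.09 in total RNA and did not pass.

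Of 7 BMP target genes past the minimum, 5 fell and 0 rose in labelled RNA, against 11.3% and 9.95% of all genes. The median change of the 7 was -0.38 against 0.01 for all genes, and -0.24 against 0.14 before centring. The 7 mRNAs were short-lived, with mock half-lives from 24.5 min (ID1) to 151 min (ID4), against 770 min for the median gene. ID1 and JUNB are also among the 14 genes with labelled RNA lower by 1 log2 unit or more. Whether the falls go with short half-lives or with BMP signalling was not tested. ID1, an inhibitor of helix-loop-helix transcription factors and a standard BMP readout, went from 53.9 and 59.3 to 33.6 and 26.0 in labelled RNA (-1.04, limma, adjusted p = 0.00021). ID4 went from 184 and 183 to 135 and 131 (-0.60, limma, adjusted p = 0.00096), and JUNB from 66.0 and 70.6 to 36.4 and 36.7 (-1.01, limma, adjusted p = 3.3e-05). ID3 and HEY1 were at -0.38 and -0.28, and both calls were lost without mock replicate 2, without siRNA replicate 2 and without centring, which left 3 of the 5. With no expression minimum 9 of the 12 measured genes fell in labelled RNA, and 2 did with a mean of 20. ID2 and BAMBI were at -0.06 and 0.02 and did not pass. Total RNA fell in 3 of the 7, ID1, ID3 and JUNB, and rose in ID4 (0.35), against 15% and 13.6% of all genes. The call of ID1 in total RNA was lost without centring, mock replicate 2 or siRNA replicate 2. None of the 7 half-lives passed (limma, 0 of 7), while that of ID4 did with a mean of 20 and with recomputed half-lives. By an unadjusted p under 0.05, 1 did, ID4 (0.35, limma, unadjusted p = 0.0070, adjusted p = 0.073).

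Of 16 AP-1 and CREB factor genes, 7 fell in total RNA and 4 in labelled RNA, against 15% and 11.3% of all genes. The 4 in labelled RNA were the AP-1 genes FOS, JUND, JUNB and JUN. JUND went from 112 and 116 to 55.8 and 46.3 (-1.28) and JUN from 354 and 364 to 295 and 247 (-0.54, limma, adjusted p = 0.0058). With a mean of 20 the count in labelled RNA was 2. JUNB is also in the BMP target list. FOSB and FOSL1, below the minimum of total RNA and not tested, had labelled values of 9.64 and 9.50 against 3.18 and 3.07, and of 17.2 and 16.6 against 9.32 and 9.20. The other 12 genes of the list included CREB1 (0.12) and ATF2 (0.12), which did not pass in labelled RNA. None of the 16 rose in labelled RNA by this test (limma, 0 of 16, also 0 at an unadjusted p under 0.05), while without centring 4 did, CREB1, CREB3, CREBBP and EP300, which lay at 0.12 to 0.17 with it. The total RNA of ATF7 (-0.68), CREM (-0.53) and ATF3 (-0.43) fell, with labelled changes of -0.09, -0.01 and 0.03. Whether any of these genes moved because of ZCCHC12 was not tested, and the lists were chosen with results of these data known.

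**Figure D4:**
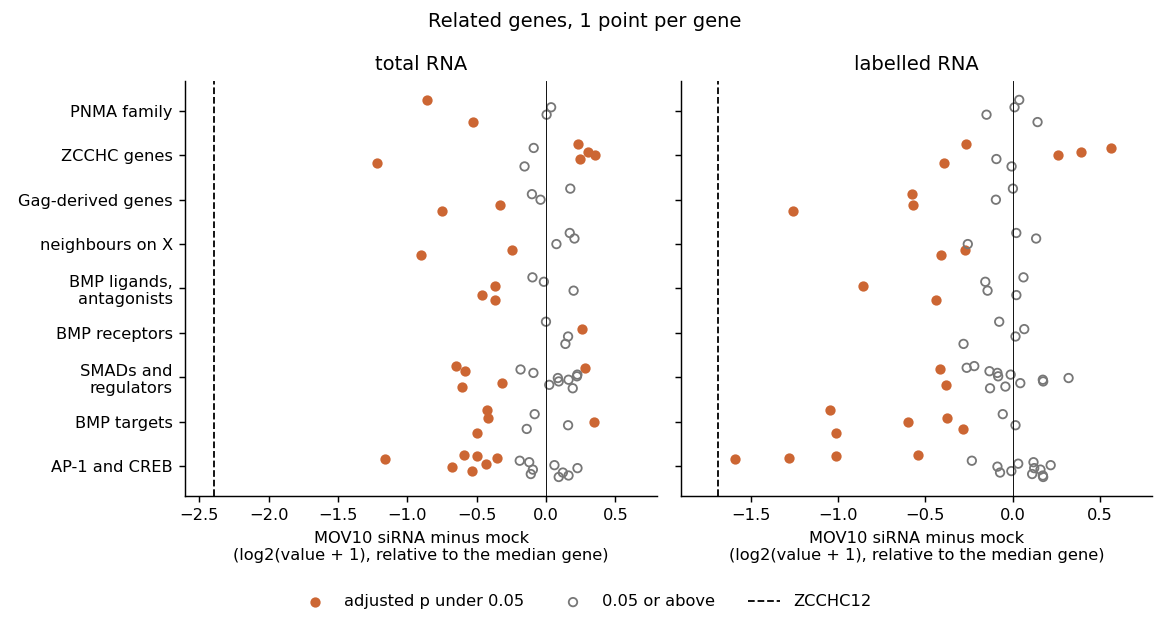
Log2 change (siRNA minus mock, relative to the median gene) of total RNA (left) and labelled RNA (right) in 9 groups of genes, 1 point per gene, filled where the limma adjusted p was under 0.05; the dashed line marks ZCCHC12 (-2.39 and -1.69). ZCCHC12 was chosen as an extreme, so the line only marks its place; the lowest points in labelled RNA are FOS (-1.59), JUND (-1.28) and ARC (-1.26).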

How the data were processed

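HEK293 cells were compared as mock against MOV10 siRNA in total, 4SU-labelled and flow-through poly(A)+ RNA. TopHat2 2.06 and the build hg18 are named in the submitters' processing notes. The counting tool and its annotation are not given in the sources used here. Expression came from the authors, who deposited 12 columns of a normalised signal for each gene's RNA and, per the labels' protocols, half-lives computed by a published method in 4 more. GEO lists 6 samples, 1 a group; the column headers name replicates 1 and 2 of each. The half-lives the authors deposited carry another unit, which the header does not name and which is read as minutes because half-lives recomputed here in minutes had column medians of 463 to 646 against 736 to 1021 deposited, of the same order but up to 2.2-fold apart in siRNA replicate 2. For that, total values were fitted as a weighted sum of labelled and flow-through values by least squares, with first-order decay over 60 min.

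Genes with a mean total value of 5 or more over the 4 total columns were kept, 6264 of 7682 (81.5%). Each measure was fitted apart with limma 3.58.1 (R 4.3.3) on log2(value + 1), or log2 half-life, centred on the median gene of each column, with a mean-variance trend and Benjamini-Hochberg adjustment at 0.05. The fit of total RNA was tested on simulated data with few changed genes. That test does not cover the other measures or the effect of centring. Figures were drawn with matplotlib 3.10.9.

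Named genes are ZCCHC12, MOV10 and UPF1, the measured PNMA, ZCCHC and Gag-derived genes, the 10 genes nearest in pattern, the 5 largest falls of total and of labelled RNA, neighbours on chromosome X, the genes next to ZCCHC12 in mock level and half-life, and of every other list the 2 largest falls and rises; other list genes were named after their values were seen. The members, lists and rules were chosen with earlier results of these data known. Alternatives were the scaling, each column left out, the expression minimum, the value added before log2, recomputed half-lives, a replicate block and limma without trend.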

Additional observations from a re-analysis of the deposited data

How the results depend on the processing

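The 4 changes of ZCCHC12 kept their sign under every alternative tried. With 1 column left out, total RNA lay between -2.42 and -2.36, labelled RNA between -1.80 and -1.57, flow-through RNA between -2.34 and -2.29 and half-life between -0.69 and -0.44. With nothing added before log2, total RNA was at -2.53 and flow-through RNA at -2.40; with 5 added, total, labelled and flow-through RNA were at -1.99, -1.39 and -2.02. As deposited, without centring, labelled RNA was at -1.56 and half-life at -0.37, since the median gene itself moved by 0.14 and 0.20.

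Counts over all genes moved more. Without centring, 505 genes were higher in total RNA, 345 lower and 1666 higher in labelled RNA, and 8 half-lives shorter and 4 longer. With a mean total value of 20, which tests fewer genes, total RNA gave 419 lower and 362 higher, labelled RNA 294 and 318, flow-through RNA 801 and 995, and 170 half-lives were shorter. With no minimum 80 half-lives were longer, and recomputed half-lives gave 216 longer. With 1 column left out, total RNA gave 594 to 1167 lower and 362 to 1155 higher genes, labelled RNA 466 to 776 and 380 to 634, flow-through RNA 1323 to 1479 and 1403 to 1697, and half-lives 65 to 152 and 7 to 54. The siRNA columns gave the fewest total RNA calls when left out, mock replicate 2 the fewest labelled and mock replicate 1 the fewest half-life calls. A column left alone was assumed to vary like the other condition. The cause of these shifts was not tested. The numbers do not show that same-numbered columns are pairs: differences between replicates correlated across conditions at 0.04, -0.03, 0.10 and -0.05 in total, labelled, flow-through RNA and half-life. A replicate block gave 177 shorter and 51 longer half-lives. Depth is unknown, so no counting error is given.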
